A study of Sesbania grandiflora with 21 samples.

Results

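The comparison of DS-L leaves with ck leaves of Sesbania grandiflora, a legume tree, rests on 6 of the 21 messenger RNA libraries of the series. They were chosen by their sample titles, 3 titled DS-L and 3 titled ck. Drought and salt stress in combination are the subject that the series title gives. The sample titles form 7 groups of 3 libraries, namely ck, the combined DS+Y-L and DS+Y-S, and DS-L, Y-L, DS-S and Y-S, whereas the series design text speaks of 4 groups of 3. The labels do not expand DS, Y, L or S, so the stress, dose or duration behind DS-L is not known here. Age, cultivar and growing conditions of the plants are not stated in the labels. The title ck carries no suffix L or S, so what DS stands for and what the suffix L stands for cannot be told apart in this comparison. Whether replicate libraries derive from different plants is not stated, and a p-value therefore measures only how far libraries spread, which may be technical.

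Drought and salt both lower the water available to a leaf. Leaves are known to respond through the hormone abscisic acid, which closes stomata and switches on genes for protective proteins and osmolytes, while genes for photosynthesis and growth tend to be turned down. The genes here were assembled from the reads themselves and carry assembly identifiers without names or descriptions, so none of them could be placed in these pathways, and the labelled tissue could not be checked against leaf marker genes. The genes are therefore described by their levels. In RNA from whole leaves, fewer cells of a type and less RNA per cell cannot be told apart.

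The 6 libraries held 16431940 to 19318134 counts each, and between 51607 and 61117 of the 97500 assembled genes had at least 1 count. A DS-L library held 54654 ± 3326 genes with a count (SD, n = 3) and a ck library 58657 ± 3934 (SD, n = 3), a difference with an exact two-sided permutation p of 0.3, where 0.1 is the smallest p that 3 libraries against 3 allow. As for 15 of the 21 libraries, ck 2 and ck 3 among them, the library nearest to DS-L 3 lay outside its own group. The root mean square difference in log2 CPM (counts scaled to a common library size, with TMM factors) between DS-L 3 and ck 1 was 0.9957, less than between DS-L 3 and DS-L 1 (1.08) or DS-L 2 (1.495). In both, the 100 most abundant genes took similar shares of all counts, 25.78% in DS-L 3 and 24.99% in ck 1, against 14.17% to 19.67% in the other 4. Among genes of at least 10 CPM with a length of 336.6 to 637.4 bases, as implied by the deposited values, the median deviation from the mean of the 6 libraries was 0.38 in DS-L 3 and 0.20 in ck 1 on the log2 scale, but -0.30 in ck 2. The part of this length profile in the differences below was not tested, and values with the length trend removed are given beside the counts by unadjusted p, by overlap and by the leading rule. With that trend removed, the root mean square difference of DS-L 3 was 1.004 from ck 1, 1.112 from DS-L 1 and 1.592 from DS-L 2.

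DS-L 1 stood apart in another way, as its profile lay between those of the other 2 DS-L libraries. Of 1184 genes that differed at least 4-fold between DS-L 2 and DS-L 3, with at least 20 CPM in the higher, DS-L 1 lay between them in 1184. On the linear CPM scale, with DS-L 3 taken as 0 and DS-L 2 as 1, its place had a median of 0.561 and quartiles of 0.524 and 0.585. Among all 15677 genes of at least 5 CPM in the group, DS-L 1 lay between its partners in 80.86%. The same share ran from 8.745% to 54.15% for the other 20 libraries in their own groups, highest for Y-S 2. A weighted sum of 47.68% DS-L 2 and 52.32% DS-L 3 left a squared deviation of 2.499 times the counting noise in DS-L 1. No sum of a pair of libraries came closer than 7.225 times the counting noise to any other library, in 3990 fitted sums. The next best pair for DS-L 1 was ck 1 with DS-L 2, at 5.543. What gave DS-L 1 this profile was not tested. The titles list DS-L 1 as a replicate of its own, but a library that matches an average of its partners adds little to the measured spread of the group. Values without it are given beside the calls, the counts of genes with no overlap, the leading genes, the named genes and the genes counted in 1 group only.

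**Figure D1:**
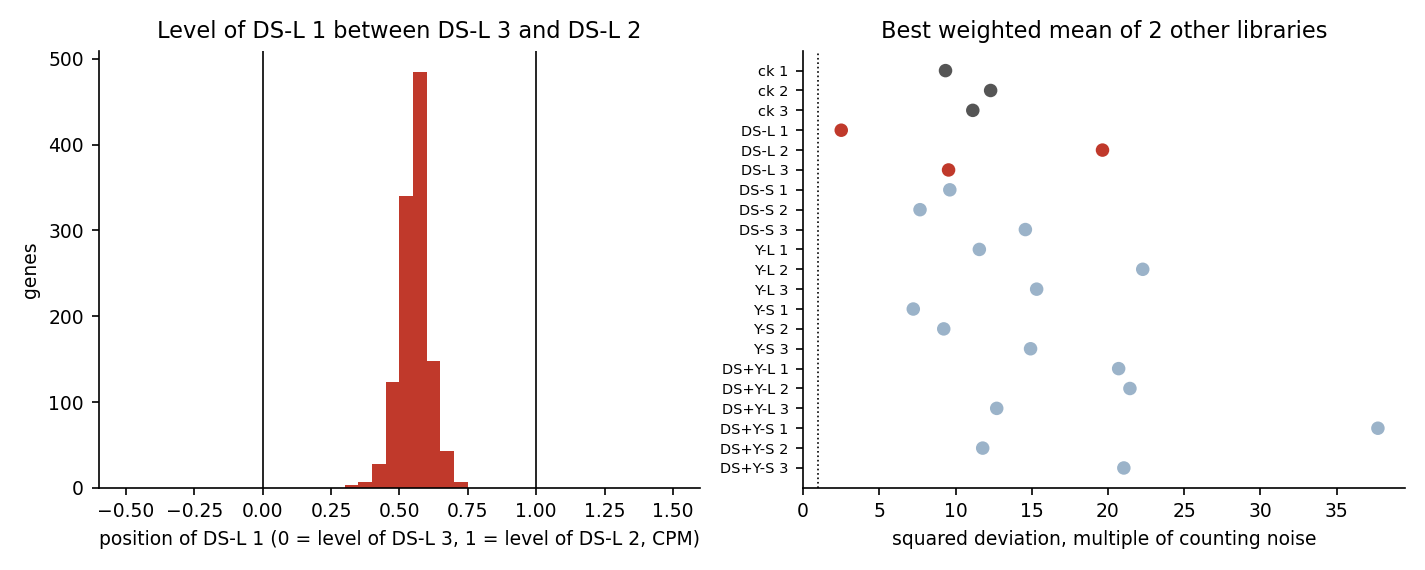
Left, number of genes by the place of DS-L 1 between DS-L 3 (0) and DS-L 2 (1) on the linear CPM scale, for the 1184 genes at least 4-fold apart between those 2 libraries, all of which lie between the vertical lines at 0 and 1. Right, squared deviation of each library from its best weighted sum of 2 other libraries, as a multiple of counting noise (dotted line at 1), with DS-L 1 at 2.499 and the other 20 libraries at 7.225 to 37.71.

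Against ck, no gene passed the threshold in DS-L. Of 38211 genes with enough counts to test, edgeR's quasi-likelihood test called 0 (0%) with Benjamini-Hochberg adjustment at 0.05, and the smallest adjusted p was 0.158, shared by 11 genes. At an unadjusted p under 0.05 the same test had 3214 genes (8.41%), 1718 higher in DS-L (4.50%) and 1496 lower (3.92%). That split was not stable. It turned to 1614 higher and 1823 lower with the length trend of each library removed, to 2939 and 3362 without a low-count filter, to 5211 and 5964 in limma-voom and to 1322 and 1465 without ck 1. Removing the length trend also moved the median log2 fold change over all genes tested from -0.025 to -0.105. The trend was fitted on genes of at least 10 CPM and applied to all. The part of this downward shift in the turned splits was not tested. DESeq2 called 493 genes (1.29%), limma-voom 4670 (12.2%) and edgeR without a low-count filter 1601 (1.64%), and the dependence on the tool is given with the other settings at the end. The median size of a difference was 0.498 on the log2 scale, and 0.511 with the length trend removed, beside a median standard error of 0.764 for 1 gene. Without DS-L 1, edgeR again called 0 genes, with 2193 at an unadjusted p under 0.05. Without DS-L 2 it called 0, with 1754 at an unadjusted p under 0.05. Without DS-L 3 it called 15 (0.0393%), all higher in DS-L, and those rest on DS-L 1 and DS-L 2 alone. In some of them the left-out DS-L 3 did not lie above ck.

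The libraries of DS-L and ck did not overlap in 3369 genes that were higher in DS-L (8.82%) and in 4004 that were lower (10.5%). Without DS-L 1 these numbers were 4032 (10.55%) and 4810 (12.59%), and with the length trend removed 2529 (6.619%) and 4636 (12.13%). The values with the length trend removed also carry the downward shift of the median given above. The rule is easier to meet with fewer libraries, so leaving out DS-L 1 could only keep or raise the numbers and the shares below. Those values therefore do not show that the differences hold without it. The split between these directions differed with level. Among the 2022 genes of at least 100 CPM on average, 12.12% lay wholly above ck in DS-L and 5.44% wholly below, while among the 13395 genes under 1 CPM 5.823% lay above and 10.88% below. Without DS-L 1 the shares were 12.46% and 5.44% at 100 CPM or more and 8.391% and 14.59% under 1 CPM, and with the length trend removed they were 12.46% and 5.935%, and 3.763% and 12.82%. By gene length the uncorrected shares showed no steady trend. Among the 7642 longest genes, of 1560 bases or more, 7.603% lay above ck and 13.9% below, and among the 7644 shortest, up to 336.6 bases, 6.031% lay above and 10.39% below. In the 3 classes of length between these, 8.978% to 10.74% lay above and 9.029% to 9.685% below. Without DS-L 1, from the shortest class to the longest, 7.732%, 10.8%, 12.63%, 12.54% and 9.068% lay above. The shares below were 13.23%, 12.34%, 11.07%, 11.32% and 14.98%. With the length trend removed, the share above rose with length, at 4.212%, 5.758%, 6.778%, 7.262% and 9.081%. The share below was then 12.27%, 12.88%, 12.26%, 11.84% and 11.41%.

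**Figure D2:**
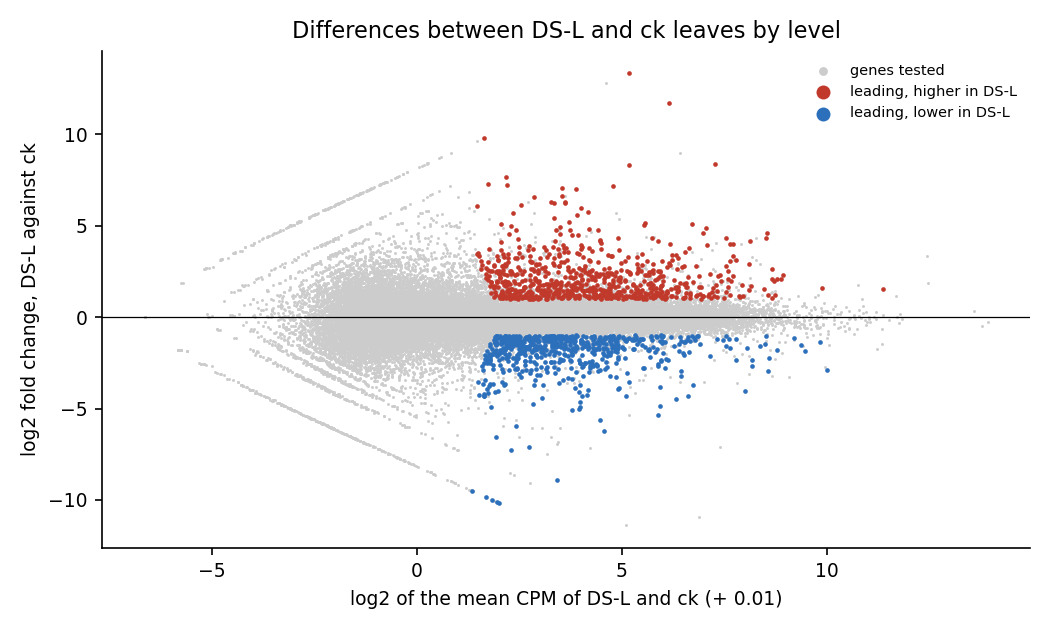
Log2 fold change of DS-L against ck (vertical axis) by log2 of the mean CPM over both groups (horizontal axis, with 0.01 added) for the 38211 genes tested, each a grey point, with the 714 leading genes higher in DS-L in red and the 608 lower in blue. The spread widens toward low levels, and leading genes lie on both sides.

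The genes with the clearest differences in level were picked by size: at least 2-fold (1 on the log2 scale), a mean of 5 CPM or more in DS-L or in ck, and DS-L libraries wholly above or wholly below those of ck. This rule used the values of the comparison itself, so what follows describes these leading genes and tests nothing. There were 1322, of which 714 were higher in DS-L (1.87% of the genes tested) and 608 lower (1.59%), a split of 54.01% higher. With the length trend of each library removed, 1112 of them were among the 1334 genes that met the rule, and the split turned to 572 higher and 762 lower, 42.88% higher. That correction also moved the median log2 fold change of all genes tested to -0.105, and the part of this shift in the split was not tested. Without DS-L 1 there were 735 higher and 621 lower, with 1286 of the 1322 among them. Without DS-L 3 there were 1724 higher and 1021 lower, and without ck 3 there were 1214 higher and 990 lower. With a library left out, the condition of no overlap is easier to meet.

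The 714 genes that were higher took 5.202% of the counts of a DS-L library on average and 1.401% of those of a ck library. Their median mean level was 25.95 CPM in DS-L and 6.251 CPM in ck, and the median log2 difference was 1.79. In 411 of them the difference was under 4-fold and in 135 it was at least 8-fold. The 3 DS-L libraries were not alike in these genes. The median log2 CPM was 4.71 in DS-L 1, 5.11 in DS-L 2 and 3.96 in DS-L 3, against 2.50 to 2.66 in the ck libraries. DS-L 2 lay farthest above ck in 581 of the 714 genes and DS-L 3 nearest in 568. In 167 genes the DS-L libraries were themselves spread over more than 4-fold, and in 187 they kept within 1.5-fold of each other. DS-L 3 stood apart in some of the largest differences. The gene with the largest fold change had 0 counts in all 3 ck libraries and stood at 77.8, 138.4 and 0.197 CPM in DS-L 1, 2 and 3. Another stood at 0, 1.733 and 0.976 CPM in ck 1, 2 and 3 and at 315.2, 608.5 and 4.525 CPM in DS-L. In both genes DS-L 3 sat far closer to ck than its partners did, although no DS-L library overlapped ck. In the first of them the level of DS-L 3 stands for only a few counts, so its separation from 0 may be counting error.

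The 608 genes that were lower took 0.885% of the counts in DS-L and 3.17% in ck. Their median mean level was 4.73 CPM in DS-L and 16.24 CPM in ck, and the median log2 difference was -1.65. In 403 of them the difference was under 4-fold and in 73 at least 8-fold. Here the DS-L libraries lay closer together than in the genes that were higher, with median log2 CPM of 2.20, 2.03 and 2.40 in DS-L 1, 2 and 3, against 3.781, 4.375 and 3.84 in ck 1, 2 and 3. DS-L 2 was again the farthest from ck most often, in 343 genes, and DS-L 3 the nearest in 363. In 85 genes the DS-L libraries were spread over more than 4-fold. Of the leading genes, 2 of the higher had no count in any ck library and 5 of the lower had none in any DS-L library. With these set to the bound that 3 counts over the group allow, the medians stayed at 1.79 and -1.65.

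**Figure D3:**
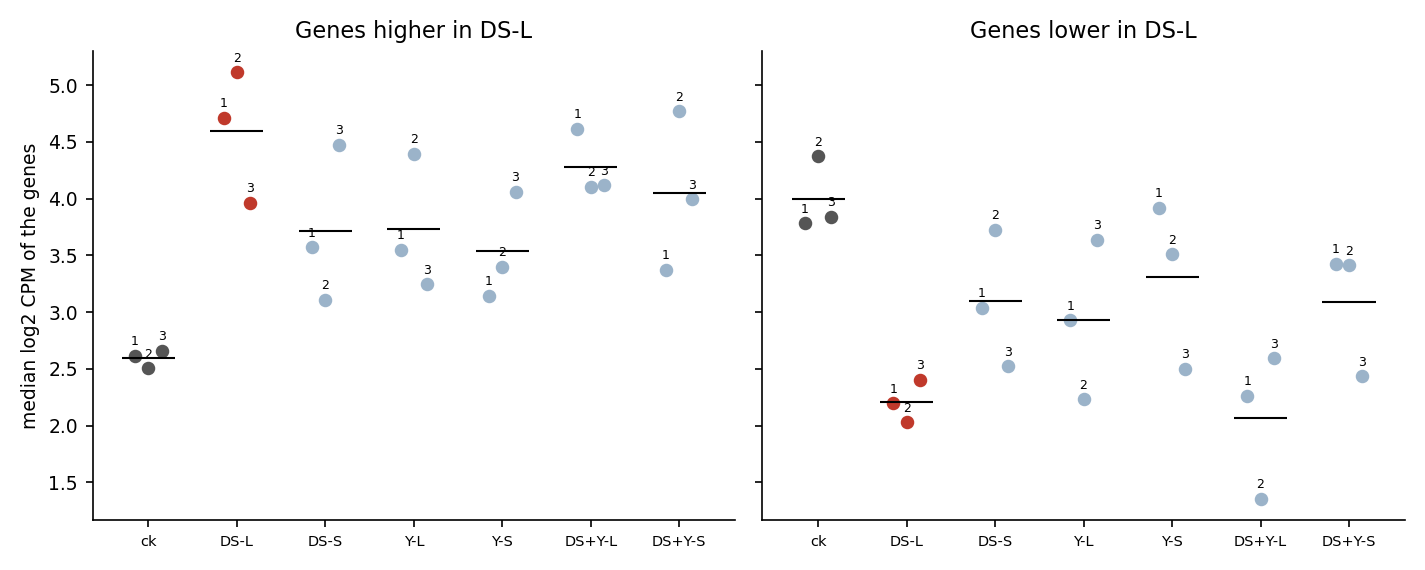
Median log2 CPM over the 714 leading higher genes (left) and the 608 leading lower genes (right) in each of the 21 libraries, with points numbered by replicate and bars at the mean of the 3 libraries. In the higher genes the ck libraries sit at 2.50 to 2.66 and DS-L 3 at 3.96 lies below its partners at 4.71 and 5.11, and in the lower genes the DS-L libraries sit at 2.03 to 2.40 and the ck libraries at 3.781 to 4.375.

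The genes named here are the 2 leading genes in each direction with the smallest unadjusted p. TRINITY_DN23_c0_g1 stood at 16.48, 18.65 and 15.72 CPM in ck 1, 2 and 3 and at 40.57, 40.1 and 41.38 CPM in DS-L 1, 2 and 3. Its DS-L libraries were almost level and all more than 2-fold above every ck library. The log2 fold change was 1.26 ± 0.22 (SE, n = 3 per group), with an edgeR adjusted p of 0.158 over all genes. Its group means ran in the order DS-L (40.68 CPM), Y-S (33.24), DS+Y-S (28.59), DS-S (26.33), DS+Y-L (23.91), Y-L (21.98) and ck (16.95). The Y-S libraries, at 28.44 to 42.71 CPM, overlapped those of DS-L and of DS+Y-S, and those of DS-S, at 21.28 to 30.11 CPM, overlapped those of every other treated group but DS-L. All 3 libraries of ck were below those of the 6 treated groups.

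TRINITY_DN5065_c0_g1 stood at 1.515, 1.049 and 1.285 CPM in ck and at 30.99, 53.36 and 3.476 CPM in DS-L 1, 2 and 3. DS-L 3 was above every ck library but far below its partners. The log2 fold change was 4.51 ± 0.80 (SE, n = 3 per group), with an edgeR adjusted p of 0.158. Its next highest group was DS+Y-S, at 13.66 ± 5.07 CPM (SD, n = 3), whose libraries lay within the range of DS-L. The means of the other 4 treated groups ran from 3.667 to 5.102 CPM. Each of these groups also overlapped DS-L, with a library above DS-L 3. Their highest libraries stood at 8.365 CPM in DS-S, 7.425 in Y-L, 6.686 in DS+Y-L and 5.436 in Y-S.

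TRINITY_DN2770_c0_g1 stood at 11.62, 23.85 and 10.94 CPM in ck and at 2.574, 2.165 and 1.836 CPM in DS-L. The DS-L libraries were close together, and the lowest ck library was more than 4-fold above the highest of them. The log2 fold change was -2.82 ± 0.51 (SE, n = 3 per group), with an edgeR adjusted p of 0.158. The means of the other treated groups ran from 3.307 CPM in DS+Y-L to 7.908 CPM in Y-L, and the libraries of DS+Y-L and DS+Y-S overlapped those of DS-L.

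TRINITY_DN4096_c0_g1 stood at 18.31, 56.18 and 34.99 CPM in ck and at 5.355, 4.383 and 7.477 CPM in DS-L. Here the ck libraries were 3-fold apart while the DS-L libraries were within 2-fold. The log2 fold change was -2.67 ± 0.51 (SE, n = 3 per group), with an edgeR adjusted p of 0.171. The DS+Y-L libraries, at 5.027 to 7.401 CPM, lay within the range of DS-L, 1 Y-L library at 5.282 CPM did too, and Y-S had the highest mean of the treated groups, at 18.55 CPM. Without DS-L 1 the log2 fold changes of the 4 named genes were 1.26 ± 0.25 for TRINITY_DN23_c0_g1, 4.47 ± 0.86 for TRINITY_DN5065_c0_g1, -2.95 ± 0.62 for TRINITY_DN2770_c0_g1 and -2.62 ± 0.62 for TRINITY_DN4096_c0_g1 (SE), with edgeR adjusted p from 0.3005 to 0.4098.

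**Figure D4:**
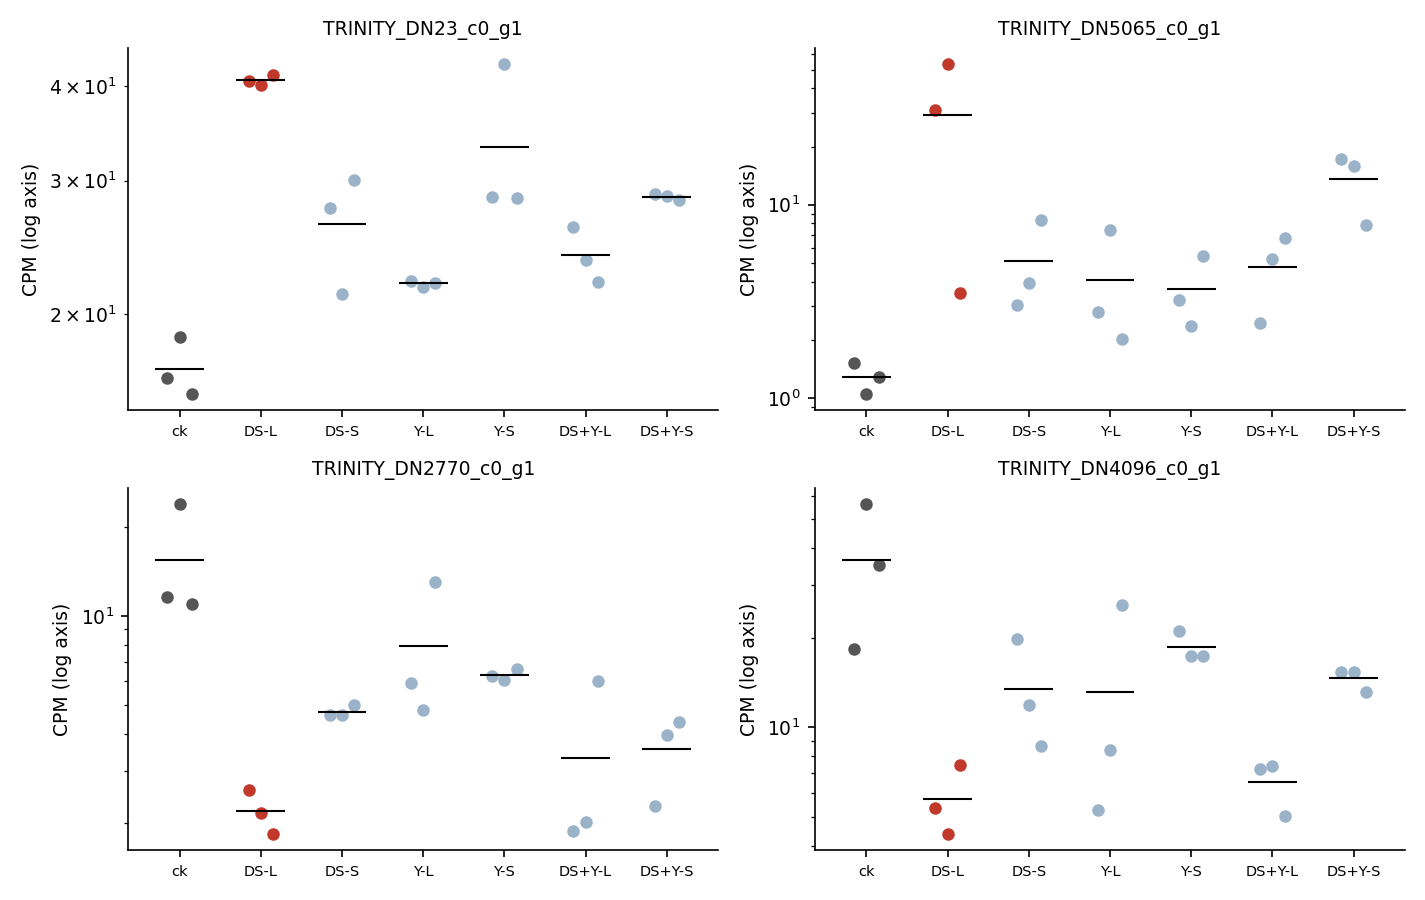
CPM on a log axis of the 4 named genes in each of the 21 libraries by group, with points for libraries and bars at the group mean. DS-L lies wholly above ck in TRINITY_DN23_c0_g1 and TRINITY_DN5065_c0_g1 and wholly below it in TRINITY_DN2770_c0_g1 and TRINITY_DN4096_c0_g1, with DS-L 3 at 3.476 CPM far below its partners in TRINITY_DN5065_c0_g1.

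Fitted to the 6 libraries of the comparison alone, edgeR called 6 of the genes tested (0.0157%), 2 higher and 4 lower, and with the low-count filter applied to those 6 libraries it called 7 (0.0232%), 3 higher and 4 lower, the 6 among them. In all 7 the DS-L libraries lay within 2-fold of each other. The third higher gene stood at 40.79, 47.33 and 51.23 CPM in ck and at 330, 307.2 and 334 CPM in DS-L. Another higher gene stood at 13.57, 20.15 and 19.63 CPM in ck and at 123.8, 136.2 and 120.5 CPM in DS-L. Of the lower genes, 1 stood at 98.24, 169.8 and 83.85 CPM in ck and at 5.355, 3.409 and 3.345 CPM in DS-L, and another at 26.33, 38.71 and 37.77 CPM in ck and at 1.853, 2.489 and 2.099 CPM in DS-L. In all 4 the groups lay far apart beside their own spread. Without DS-L 1, the fit to the other 5 libraries called 0 genes, with 2961 at an unadjusted p under 0.05. None of the 7 was among the 15 called without DS-L 3. In those 15 the DS-L libraries were spread, as in 1 gene at 97.23, 169.3 and 73.06 CPM in ck and at 711, 1134 and 233 CPM in DS-L 1, 2 and 3. There DS-L 3 still lay above ck, but in some of the 15 it did not. In 1 of these DS-L 3 lay below every ck library, with 14.46, 21.34 and 19.11 CPM in ck and 61.63, 114.6 and 8.854 CPM in DS-L 1, 2 and 3. These genes were picked from the calls of those fits, after their values were seen.

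Some genes were counted in 1 group and not in the other. With at least 10 counts in each ck library and 0 in each DS-L library there were 30 of the 97500 assembled genes, against 3 for the reverse. Without DS-L 1 these numbers were 81 and 21, and leaving out a library could only keep or raise them. The 30 genes were between at least 11.29-fold and at least 127-fold lower in DS-L, taking 3 counts over the DS-L group as the floor. Outside ck and DS-L, DS-S 1 had counts for all 30, while each of the remaining libraries had counts for 1 to 9. For 20 of the 30, DS-S 1 was the only library besides ck with any count. The other 10 were counted in several libraries outside ck and DS-L, 1 of them in all 3 libraries each of DS-S, Y-L and Y-S. Over all assembled genes, 117 were counted in all 3 ck libraries and DS-S 1 and in no other library, 19 of them with at least 10 counts in all 4. The next most frequent partner of ck, Y-S 1, gave 6 such genes. The 117 genes held 0.004695% to 0.01364% of the counts of these 4 libraries. What brings ck and DS-S 1 together in these genes was not tested. Between ck and the other treated groups, the number counted in ck only was 60 for DS+Y-L, 58 for Y-S, 56 for DS+Y-S and 45 for Y-L, and 0 for DS-S, which contains DS-S 1. The reverse numbers were 19 for DS+Y-L, 11 for Y-S, 19 for DS+Y-S, 17 for Y-L and 1 for DS-S. More genes in ck only was thus not particular to DS-L.

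**Figure D5:**
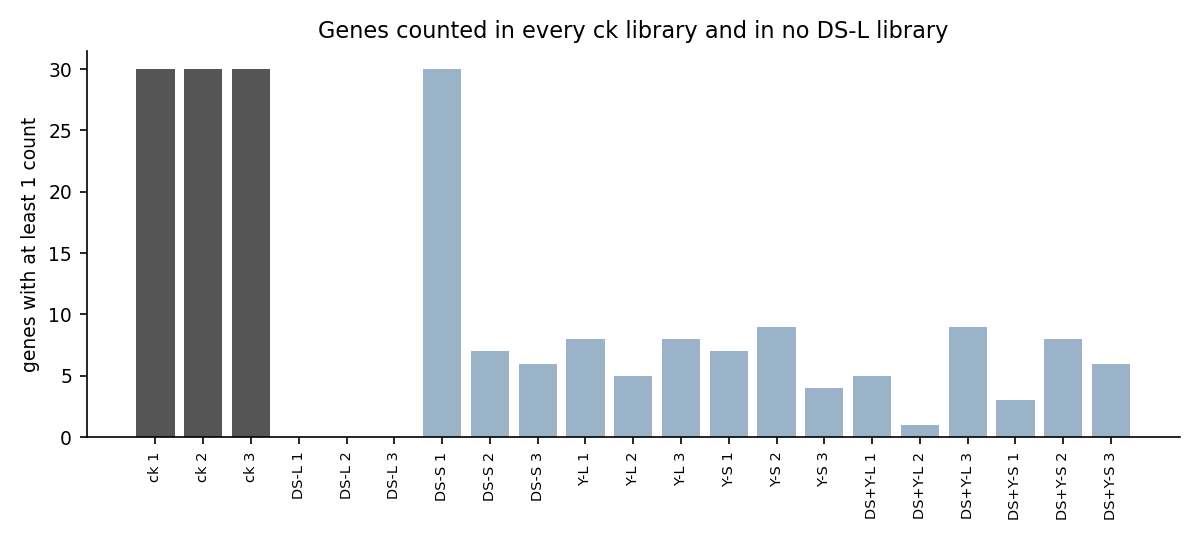
Number of the 30 genes counted in all ck libraries and in no DS-L library that had at least 1 count in each of the 21 libraries. All 30 had counts in DS-S 1, and the other libraries outside ck and DS-L had counts for 1 to 9.

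The leading genes were then looked up in libraries that had no part in choosing them. DS+Y-L against Y-L is another comparison of titles with and without DS at the suffix L, and edgeR called 0 genes in it, with 3875 at an unadjusted p under 0.05 (10.1%). Of the 714 genes that were higher in DS-L, 541 were also higher in DS+Y-L than in Y-L (75.77%, beside 49.41% of all genes tested), with a median log2 difference of 0.58. In 71 of them (9.944%, beside 6.17% of all genes tested) the DS+Y-L libraries lay wholly above those of Y-L. Of the 608 that were lower in DS-L, 495 were lower in DS+Y-L (81.41%, beside 50.44%), with a median of -0.87, and 95 lay wholly below (15.62%, beside 7.91%). Chosen without DS-L 1, the shares were 75.24% and 81.32%. In DS+Y-S against Y-S the shares were 73.25% higher (47.25% of all genes) and 65.95% lower (52.58% of all genes). There 6.443% of the higher genes lay wholly above Y-S, beside 2.368% of all genes, but only 2.961% of the lower genes lay wholly below, beside 4.012% of all genes. Genes of a library move together, so these shares carry no test. The median log2 CPM of the higher genes was 4.10 to 4.61 in the DS+Y-L libraries and 3.247 to 4.395 in those of Y-L, which overlap. By group, the median was 3.705 in DS-S, 3.692 in Y-L and 3.528 in Y-S, each above the 2.574 of ck. In the lower genes it was 3.049, 2.908 and 3.274, each below the 3.945 of ck. Groups titled without DS thus stood on the same side of ck, though the ck libraries had part in choosing the genes. By the leading rule, Y-L against ck had 1068 higher and 705 lower genes, with no overlap in 20.31% of all genes tested. The DS-L group had the highest mean of all 7 groups in 384 of the 714 genes, followed by DS+Y-L in 186. In the 608 lower genes DS+Y-L had the lowest mean in 333 and DS-L in 183. Both rankings include the DS-L and ck libraries that chose the genes, so that choice sets them in part.

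DS-L was compared directly with the groups nearest to it by label. Against DS-S, edgeR called 0 genes (0%), with 1755 at an unadjusted p under 0.05 (4.59%), and the groups did not overlap in 13.5% of genes. The median size of a log2 difference was 0.423. Without DS-L 1 edgeR called 0 genes against DS-S and 0 against Y-L. Against Y-L, edgeR called 0 genes (0%), with 3427 at an unadjusted p under 0.05 (8.97%), no overlap in 16.5% of genes, and a median size of 0.541. The named genes were chosen by their values in these same DS-L libraries, so their side in both comparisons is set in part by that choice and is given as a description, with edgeR adjusted p from 0.399 to 1. TRINITY_DN23_c0_g1 was 0.63 ± 0.21 higher than in DS-S and 0.89 ± 0.22 higher than in Y-L, and TRINITY_DN2770_c0_g1 was lower than in Y-L, with a log2 difference of -1.85 ± 0.49 (SE, n = 3 per group, log2 scale). A p that misses the threshold does not show that DS-L and these groups are alike, since the spread estimated for the fit was large. Its coefficient of variation of 0.619 is common to all 21 libraries and not particular to these groups. The mean root mean square log2 difference between libraries of a group was 1.151 in DS-L, 1.117 in DS-S and 1.204 in Y-L, but 1.927 in DS+Y-S.

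The length that a count and its FPKM imply for a gene can differ between libraries where the shares of its assembled transcripts differ. Over 12858 genes, limma called 1 (0.00778%) at an adjusted p under 0.05. Its implied length was 962.1, 1039 and 960 bases in ck and 1378.2, 1374.2 and 1314.3 bases in DS-L, longer in all 3 DS-L libraries, with a log2 difference of 0.46 and an adjusted p of 0.0466. No gene was called without DS-L 1 or without ck 2, while 2 were called without ck 3 and 13 without DS-L 3.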

How the data were processed

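The authors deposited 1 table with a whole-number count and an FPKM value per assembled gene and library, per the file headers. Gene identifiers are those of a de novo assembly. No label or header names the aligner, counting program or annotation, or says whether estimated counts were rounded. Assembled genes can share reads with close copies, so 1 identifier may carry reads of a relative. FPKM served only to derive an implied length per gene from its counts and the library totals.

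Counts of all 21 libraries and 7 groups were fitted with edgeR 4.0.16 in R 4.3.3 after filterByExpr by group and TMM scaling. Quasi-likelihood tests were adjusted by Benjamini-Hochberg over the 38211 genes tested, at a threshold of 0.05. CPM values are TMM-scaled, and log2 CPM used a prior count of 2. DESeq2 1.42.0 and limma 3.58.1 were used for alternatives and limma for implied lengths. Named genes were the 2 higher and the 2 lower leading genes with the smallest unadjusted p. For sums of libraries, genes with an expected count of at least 20 were used. The fits were tested on simulated data. With the spread as estimated, edgeR recovered 0% of 50 genes given a 2-fold difference between DS-L and ck, and 28% of those given 4-fold. For 8-fold the share was 92% and for 16-fold 100%, with 4 false calls among 114. With a low spread, 98% of the 2-fold genes were recovered. Each simulated gene took the spread of the trend for its level, so genes had no spread of their own. In the real data, 135 higher and 73 lower leading genes differed at least 8-fold, and edgeR called 0. The simulated shares therefore do not carry over to these data. The 0 calls against ck do not show that differences of any of these sizes are absent. For implied lengths, 74% of shifts of 0.5 and 94% of shifts of 1 on the log2 scale were recovered. Gene lists and markers could not be matched and no sequence was used. The genes, groups and rules were chosen with earlier results of these data known. The length correction, the fit to 5 libraries without DS-L 1, the counts without overlap or in 1 group only without DS-L 1, the sums of libraries and the implied lengths were added after the values were seen. Leaving out each library in turn from the fit of all libraries was planned. Intervals of sequencing depth are not given, and floors of 3 counts cover counting error only.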

Additional observations from a re-analysis of the deposited data

How the results depend on the processing

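In DS-L against ck, the 0 calls of edgeR held with DESeq2 size factors, without DS+Y-S 1 and with the length trend removed. Without a low-count filter there were 1601 calls, in fits to the 6 libraries 6 and 7, with DESeq2 493 and with limma-voom 4670, where library weights gave DS-L 1 a weight of 12.75 beside at most 3.116 for any other library. Without DS+Y-S 1, which is in neither group, 4178 genes had an unadjusted p under 0.05 and 1317 were leading. Leaving out 1 of the 6 DS-L and ck libraries gave 0 to 15 calls, 1754 to 3933 genes at an unadjusted p under 0.05, 1347 to 2745 leading genes and a median size of 0.486 to 0.621. The genes at an unadjusted p under 0.05 numbered 6301 without the filter, 5154 with the 6 libraries and the same genes, and 11175 in limma-voom. The median size was 0.693 without the filter.

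Against DS-S, calls numbered 499 without the filter, 88 with DESeq2, 4094 with limma-voom and 0 to 3 with 1 library left out. Against Y-L they numbered 1387 without the filter, 35 with the 6 libraries and the same genes, 328 with DESeq2, 4430 with limma-voom and 0 to 5 with 1 library left out. Genes with a changed implied length numbered 0 with the 6 libraries, 2 without DS+Y-S 1 and 0 to 13 with 1 library left out. The cause of these differences was not tested.

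Deviations of same-numbered DS-L and ck libraries had r of -0.0423, 0.124 and -0.24 across genes, which are not independent replicates. Against DS-S the r were 0.1018, -0.2582 and -0.3001, and against Y-L -0.04486, 0.009824 and 0.1053. The labels do not say whether a shared number marks a shared plant or day, and these r cannot decide it. With replicate number as a block there were 0 calls against ck and 2956 genes at an unadjusted p under 0.05, 0 calls against DS-S, 2 against Y-L and 0 genes with a changed implied length.

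The 4 named genes kept their direction in all 16 alternatives. They were chosen from these same libraries for no overlap between DS-L and ck, so the kept direction was set by that choice and tests nothing. Log2 fold changes ran from 1.152 to 1.326 for TRINITY_DN23_c0_g1 and from 3.745 to 5.037 for TRINITY_DN5065_c0_g1. The range was -3.012 to -2.37 for TRINITY_DN2770_c0_g1 and -2.988 to -2.219 for TRINITY_DN4096_c0_g1. TRINITY_DN23_c0_g1 passed the threshold in 2 of the 16 alternatives, TRINITY_DN5065_c0_g1 in 4, and TRINITY_DN2770_c0_g1 and TRINITY_DN4096_c0_g1 in 3 each. Adjusted p ran from 7.981e-11 without the low-count filter to 0.805 over these genes and alternatives. Without adjusted p in DESeq2 were 6723 genes.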

Other observations

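Related assembled genes did not always differ from ck in the same direction. Genes that share an assembly component are joined by overlapping reads in the assembly. Of 3455 components with 2 tested genes, 879 had both at 5 CPM or more, and in 523 of these (59.5%) both differed from ck in the same direction. The median difference between the log2 fold changes of such a pair was 0.4543, beside 0.5278 for unrelated genes of at least 5 CPM. In 24 pairs both genes were leading, 20 of them on the same side and 4 on opposite sides. In 1 of the 4, a gene averaged 0.391 CPM in DS-L and 6.126 CPM in ck, while its relative averaged 7.897 CPM in DS-L and 0.447 CPM in ck. In another, the averages were 5.105 CPM in DS-L and 14.61 CPM in ck for 1 gene, and 75.59 and 7.605 CPM for its relative. These pairs were picked after their values were seen, and whether reads were split differently between the members was not tested.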
